A study of Bos taurus with 129 samples.

Results

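The HOX genes encode homeodomain transcription factors that give cells their position along the body axis. In mammals they lie in 4 clusters, HOXA to HOXD, and within a cluster low-numbered genes are used towards the head and high-numbered genes towards the tail. In the female tract the high-numbered HOXA genes pattern oviduct, uterus and cervix, and in mice the uterus needs Hoxa10 and Hoxa11 for implantation. The genes described here are every gene of the second experiment (E2) named HOX, then a cluster letter and a number. They were 39 of 35158 genes, with 11 in HOXA, 10 in HOXB, 9 in HOXC and 9 in HOXD. The first experiment (E1) listed 35 of them among 24616 genes. HOXB6, HOXB8, HOXD8 and HOXD11 had no row under these names in E1 and were not analysed there. An E1 row named HOXD, without a number, lies on chromosome 2 (20839236 to 20841537), between HOXD10 and HOXD12. It was not used.

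Polyadenylated RNA was sequenced from cattle (Bos taurus) at day 16 after insemination, before the embryo implants. The tissues were the conceptus (the embryo with its membranes), the endometrium (the lining of the uterus), the corpus luteum (the ovarian gland that makes progesterone) and peripheral blood mononuclear cells (PBMC, lymphocytes and monocytes). EM marks pregnancies with embryo mortality, N normal pregnancies and NP cows that were not pregnant, so NP has no conceptus. The study's methods describe the cows of 1 set of conceptuses, as lactating, multiparous Holsteins with synchronised cycles, inseminated with semen of a single sire. The methods do not extend to the other cows. In that set a pregnancy was classed from the flushed conceptus, by its appearance and its measured length. EM stood for a pink, red or opaque conceptus or a short one, and N for a translucent and long one. The labels name no treatment, transgene or allele that separates the groups. In E2 there were 6 EM and 9 N conceptuses, and 6 EM, 9 N and 7 NP libraries each of endometrium, corpus luteum and PBMC. In E1 there were 4 EM and 8 N conceptuses, 4 EM, 8 N and 7 NP endometria, and 3 EM, 7 N and 5 NP PBMC samples, and no corpus luteum. The labels do not say which libraries of different tissues came from 1 cow, and 2 samples without a group were left out. Of the 9 N endometrium columns of E2, 1 could be tied to its group by its table but not to a numbered sample, and is called unnumbered here.

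E2 libraries held 10532188 to 24482117 counts. In E1, the 4 EM conceptuses held 106785 to 6402817 counts and the 8 N conceptuses 6800123 to 14581706, so the shallowest EM libraries, S4 and S5, give little precision for a weakly expressed gene. Several libraries stood apart by the markers of their tissue. The corpus luteum library NP S109 had a summed level of 231 CPM (counts scaled to a fixed library total) for luteal markers such as STAR and CYP11A1, against 25026 CPM or more in the other NP libraries, which goes against its label. The corpus luteum library EM S121 had 4941 CPM for these markers, against 12239 to 36598 CPM in the other EM libraries, and 1901 CPM for 5 keratinocyte-type genes of stratified epithelium. In the conceptus, EM S61 of E2 had a luteal marker sum of 2928 CPM, against 5.37 to 79.4 CPM in the other EM libraries and 82.1 to 296 CPM in N. In the endometrium, N S81 had the highest smooth muscle sum of E2 (25142 CPM). Results that rest on such libraries are given with and without them. Fewer cells of a type and less RNA per cell cannot be told apart in bulk tissue.

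By chromosome position in the E1 table (build UMD3.1), the HOXA genes spanned 105.2 kb of chromosome 4 (69297275 to 69402503) and the HOXB genes 168.0 kb of chromosome 19 (38428299 to 38596261). The HOXC genes spanned 115.6 kb of chromosome 5 (26136686 to 26252315) and the HOXD genes 96.3 kb of chromosome 2 (20759890 to 20856159). HOXA10 lay at 69322975 to 69326738 and HOXA11 at 69311987 to 69314613 of chromosome 4. In RefSeq's ARS-UCD2.0 annotation, used here for neighbourhood only, 14 of the 39 genes overlap another HOX gene. These are HOXA3 to HOXA6, HOXB3 to HOXB6, HOXB8, HOXB9, HOXD3, HOXD4, HOXD10 and HOXD11, and the split of their reads between partners is uncertain.

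The first question was which paralogues each tissue used in normal pregnancy. The N libraries of all 4 tissues in E2 were put on one scale, as CPM after TMM scaling (a per-library factor from the bulk of genes). A median of at least 1 CPM was reached by 26 of the 39 genes in the endometrium, 17 in the conceptus, 12 in the corpus luteum and 2 in PBMC. The endometrium was the tissue with the most HOX genes under limits of 0.5 and 2 CPM too. All 39 genes had a count in some library. HOXB1, HOXB13, HOXC12 and HOXD12 had a median of 0 in the N libraries of every tissue.

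**Figure D1:**
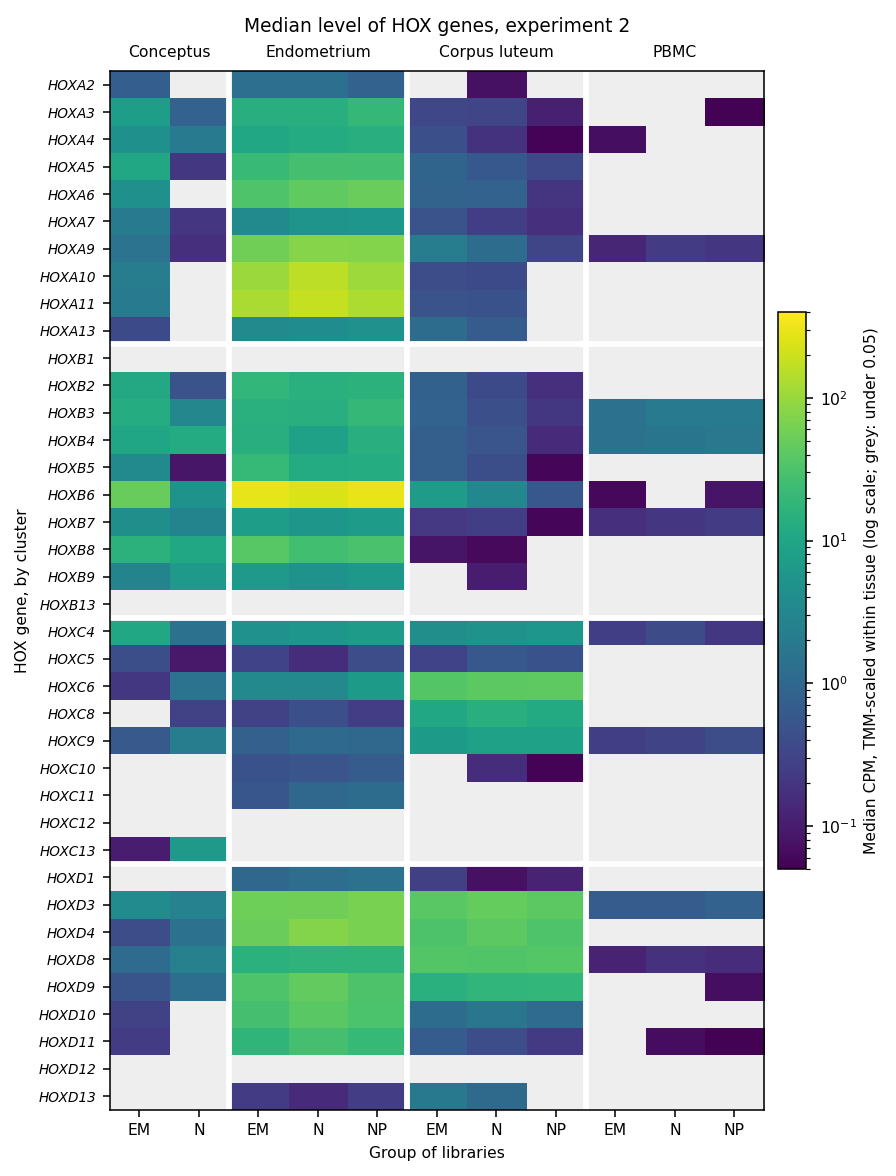
Median level of HOX genes (rows) in each group of the 4 E2 tissues (columns, EM left of N and N left of NP), as CPM on a logarithmic colour scale, each tissue scaled on its own. Grey marks medians near 0. The endometrium columns are filled through most of HOXA, HOXB and HOXD, the corpus luteum columns mainly in HOXC and HOXD, and the PBMC columns hold 2 genes at 1 CPM or more in each group.

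In the endometrium, HOXA10 and HOXA11 stood among the most abundant HOX genes. Per exon length, where E1 allows genes to be compared, HOXA10 had a median of 122.9 RPKM (CPM per kilobase of exon; 84.2 to 185) in the 8 N endometria, HOXA11 87.6 RPKM (58.9 to 157) and HOXA9, their neighbour, 64 RPKM (44.9 to 86.6). The ranges of neighbours in this order overlapped. HOXD4 (41 RPKM), HOXA5 (27.1 RPKM), HOXD10 (22 RPKM), HOXD9 (21.5 RPKM) and HOXD3 (21 RPKM) followed. By E2 reads, uncorrected for length, the 6 highest medians were HOXB6 (175 CPM; 57.2 to 475), HOXA11 (134 CPM; 63.1 to 280), HOXA10 (118.3 CPM; 51.9 to 213), HOXA9 (57.1 CPM), HOXD4 (56 CPM) and HOXD3 (41.8 CPM; 29.9 to 127.6).

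In the conceptus, members of HOXB led. In E1 the medians of the 8 N conceptuses were 5.74 RPKM for HOXB4 (4.41 to 9.61), 4.84 RPKM for HOXB7 (3.41 to 5.54) and 4.17 RPKM for HOXB9 (2.66 to 5.07), with overlapping ranges, followed by HOXB3 (1.92 RPKM), HOXD4 (1.86 RPKM) and HOXC4 (1.67 RPKM). By E2 reads the 6 highest medians were HOXB4 (17.5 CPM; 8.41 to 26.6), HOXB8 (15.9 CPM; 13.9 to 27.9), HOXC13 (9.6 CPM; 1.76 to 23.8), HOXB9 (8.82 CPM), HOXB6 (6.88 CPM) and HOXB3 (4.55 CPM). HOXA10, HOXA11 and HOXA13 had a median of 0 CPM in N conceptuses.

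HOXC13, known in mice for its role in hair and nail, was at 1.76 to 23.8 CPM in the N conceptuses, against 0 to 0.178 CPM in the endometrium, 0 to 0.107 CPM in the corpus luteum and no count in the 9 PBMC libraries. The conceptus did not overlap any other tissue for this gene. Against PBMC, whose floor was set at 3 counts over the group, HOXC13 was at least 464-fold higher in the conceptus.

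In the corpus luteum the leading genes came from HOXC and HOXD. HOXD3 had a median of 46.9 CPM (25.1 to 69.1), HOXD4 41.5 CPM (23.7 to 55.2), HOXC6 41 CPM (35.6 to 66.3), HOXD8 34.2 CPM (28 to 40.3), HOXD9 18.4 CPM (14.7 to 26.9) and HOXC8 14.1 CPM (8.44 to 17.3). HOXA10 and HOXA11 had medians of 0.377 and 0.473 CPM there. PBMC had few HOX reads: HOXB3 had a median of 1.74 CPM (1.06 to 2.23), HOXB4 1.42 CPM (1.14 to 2.31), HOXD3 0.586 CPM (0.227 to 1.56), HOXC4 0.343 CPM, HOXC9 0.271 CPM and HOXA9 0.202 CPM (0 to 0.541). Per exon length in E1, HOXB4 had a median of 1.01 RPKM (0.562 to 1.65) in the 7 N PBMC libraries and HOXB3 0.580 RPKM (0.374 to 0.878).

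These differences were tested between pairs of tissues with edgeR's quasi-likelihood test, 9 N libraries each, with p adjusted over all 19378 genes (29 of the 39 HOX genes had enough counts). Between 58.5% and 85.6% of all genes were called in these tests, so the counts are set beside the share over all genes. Endometrium against corpus luteum called 24 of 29 HOX genes, 20 higher and 4 lower in the endometrium. Over all genes 58.5% were called, 30.6% higher and 27.8% lower. The median log2 difference was 3.26 over the HOX genes and 0.08 over all genes. By cluster, 9 of 10 HOXA genes and 8 of 8 HOXB genes were higher in the endometrium, whereas 3 of 5 HOXC genes were lower. Without the corpus luteum libraries N S111, N S119 and N S124, which had high smooth muscle or epithelium sums, 32 HOX genes were tested and 28 called, 24 higher and 4 lower. Of all genes, 10967 of 20157 were called in that fit, 5772 of them higher.

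HOXA10 was higher in the endometrium than in the corpus luteum by 6.45 on the log2 scale (SE 0.71) and HOXA11 by 6.49 (SE 0.71). HOXA10 had a count in 5 and HOXA11 in 7 of the 9 corpus luteum libraries, against all 9 endometria. Both thus reached the limit on low counts through the endometrium. This favours a call, so they are given without a p. HOXC6 lay at 1.35 to 6.44 CPM in the endometrium and 35.6 to 66.3 CPM in the corpus luteum, with a log2 difference of -3.83 (SE 0.27, edgeR adjusted p = 4.01e-14). HOXC8 lay at 0.131 to 0.773 CPM in the endometrium and 8.44 to 17.3 CPM in the corpus luteum, with a log2 difference of -5.21 (SE 0.38). Neither of these HOXC genes overlapped between the tissues. HOXC9 (-2.99, SE 0.40) and HOXD8 (-1.38, SE 0.27) were lower in the endometrium too, while HOXD10 (3.80, SE 0.38) and HOXD11 (4.27, SE 0.54) were higher. HOXD3 (0.24) and HOXD4 (0.46) did not pass the test.

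Conceptus against endometrium called 23 of 29 HOX genes, 4 higher and 19 lower in the conceptus, where 85.6% of all genes were called, 35% higher and 50.6% lower. The median log2 difference was -3.47 over the HOX genes and -0.60 over all genes, or -0.88 over all genes with RLE factors, DESeq2's scaling. Genes higher in the conceptus included HOXB4 (1.03, SE 0.37), HOXC9 (1.83, SE 0.39) and HOXC13 (8.65, SE 0.70). With RLE factors HOXB4 no longer passed (0.76, edgeR adjusted p = 0.0517). HOXB7 (-0.10), HOXB8 (-0.29) and HOXB9 (1.23) were not called. HOXD10 lay at 0 to 0.0657 CPM in the conceptus and 14.6 to 55.1 CPM in the endometrium.

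Conceptus against corpus luteum called 24 of 29, 9 higher and 15 lower (81.7% of all genes called, 35% higher and 46.7% lower). In it, 5 of 8 HOXB genes were higher and 6 of 6 HOXD genes lower in the conceptus. Against PBMC, every HOX gene called was lower in PBMC: 23 were higher in the conceptus (84.9% of all genes called, 44% higher), 28 in the endometrium (73% called, 40.4% higher) and 24 in the corpus luteum (76.1% called, 42.1% higher). HOXA10 and HOXA11 had no count in the 9 PBMC libraries and were at least 5738-fold and 7040-fold higher in the endometrium. The pairs of tissues share libraries, and each is given for itself.

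Within the conceptus the question was what differed between EM and N, and here many HOX genes moved. Genes from the low and middle numbers of HOXA and HOXB were higher in EM, while HOXC9, HOXC13 and HOXD4 were among those lower. Of the 39 genes, 22 had enough counts in E2 and 15 of these passed the test, 11 higher and 4 lower in EM. DESeq2 called 16. The conceptus groups differed in most genes: 67.1% of 15642 genes were called, 35.3% higher and 31.8% lower. The share among HOX genes was thus close to that over all genes. Of the 15 called genes, 9 reached the limit on low counts only through the group in which they were higher, EM for 5 (HOXA5, HOXA6, HOXA7, HOXB2 and HOXB5) and N for the 4 that were lower in EM. Passing the limit through 1 group favours a call, so the values of these 9 genes are given without a p. HOXC6, HOXD8 and HOXD9 also passed only through N and were not called. The groups did not overlap for 10 of the 22 HOX genes tested and for 31.3% of all genes. The median log2 fold change was 0.75 over the 22 HOX genes and 0.07 over all genes (0.17 over all genes with RLE factors). CPM within a tissue, used from here on, were scaled in that tissue alone.

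**Figure D2:**
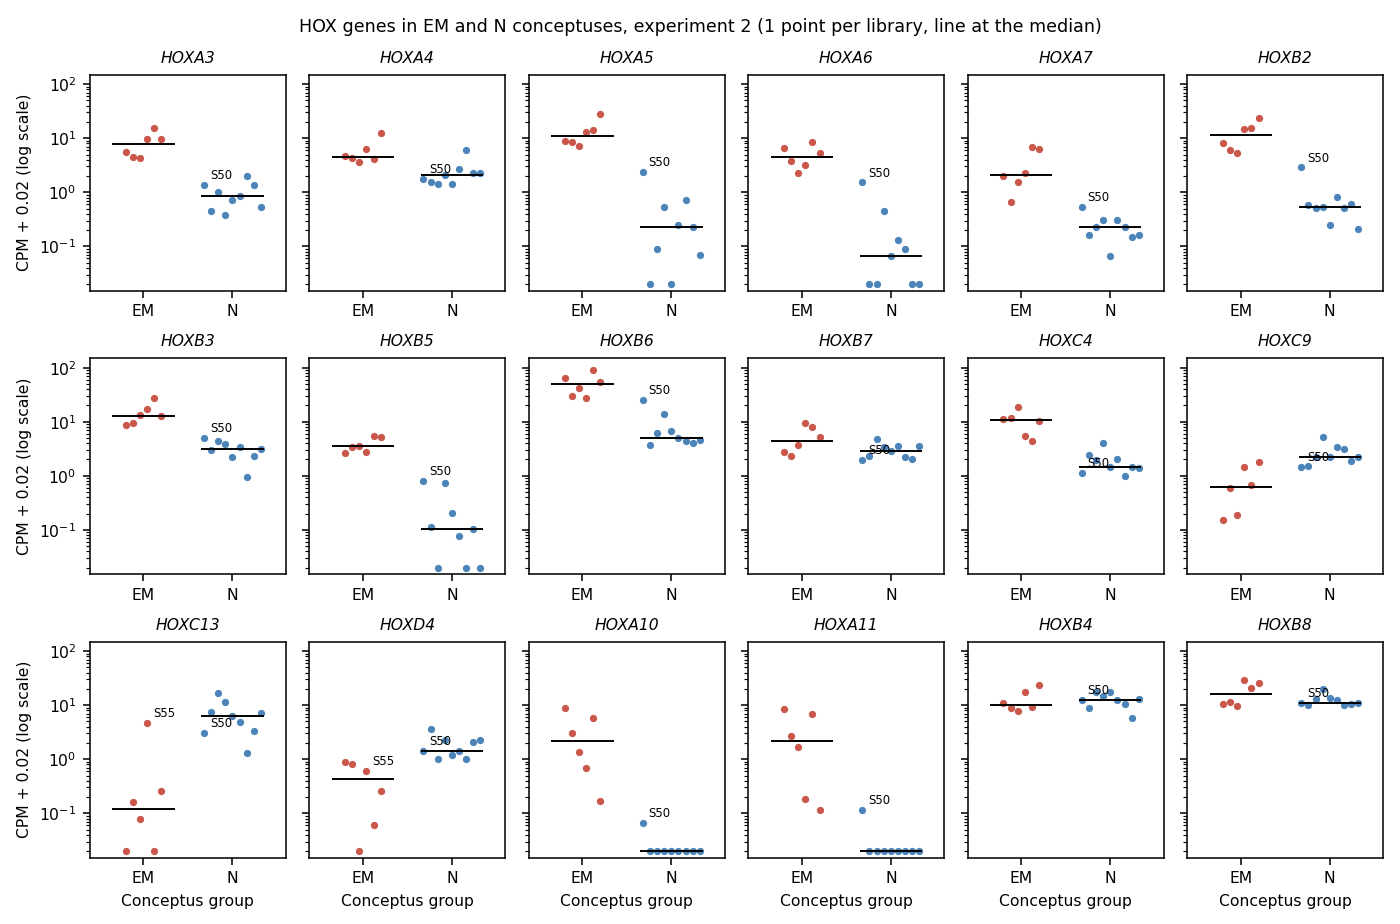
CPM of 18 HOX genes in each E2 conceptus library, on a logarithmic axis with a small offset so that libraries at 0 are drawn. Each point is 1 library, with the 6 EM libraries left of the 9 N libraries in each panel. The 10 called genes HOXA3 to HOXA7, HOXB2, HOXB3, HOXB5, HOXB6 and HOXC4, and HOXA10 and HOXA11 with too few counts for the test, have higher medians in EM, with N S50 the nearest N library for many of them, and HOXC13 is near 0 in EM apart from S55.

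In HOXA, the 5 genes from HOXA3 to HOXA7 were called. HOXA3, which in mice shapes pharyngeal organs, had a lowest, median and highest level of 4.28, 7.66 and 15.7 CPM in EM, against 0.362, 0.848 and 1.97 CPM in N (log2 fold change 3.13, SE 0.42, edgeR adjusted p = 1.55e-05). HOXA5, needed in mice for lung and airway development, had 7.19, 11 and 28.4 CPM in EM, against 0, 0.213 and 2.34 CPM in N (4.85, SE 0.86). For both genes every EM library was above every N library. HOXA6 had 2.23, 4.53 and 8.42 CPM in EM, against 0, 0.0462 and 1.5 CPM in N (4.30, SE 0.93). HOXA7 had 0.638, 2.10 and 6.99 CPM in EM, against 0.0462, 0.209 and 0.515 CPM in N (3.89, SE 0.55). These groups did not overlap either. HOXA4 had 3.54, 4.48 and 12.7 CPM in EM, against 1.40, 2.03 and 6.06 CPM in N, with a smaller difference (1.31, SE 0.38, edgeR adjusted p = 0.00647) and overlapping groups.

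In HOXB, HOXB2, HOXB3, HOXB5, HOXB6 and HOXB7 were higher in EM. HOXB2, which acts in the hindbrain and in facial nerve patterning in mice, had 5.36, 11.3 and 23.8 CPM in EM, against 0.191, 0.507 and 2.85 CPM in N (4.01, SE 0.55). HOXB3 had 8.66, 13 and 27.8 CPM in EM, against 0.916, 3.15 and 4.91 CPM in N (2.24, SE 0.34). HOXB5 had 2.60, 3.50 and 5.52 CPM in EM, against 0, 0.0851 and 0.796 CPM in N (4.12, SE 0.76). In all 3, the lowest EM library was above the highest N library. HOXB6 had 27, 49 and 92 CPM in EM, against 3.74, 4.98 and 25.3 CPM in N (2.67, SE 0.44, edgeR adjusted p = 8.32e-05), again without overlap. HOXB7 differed least, with 2.34, 4.41 and 9.32 CPM in EM, against 1.97, 2.91 and 4.75 CPM in N (0.81, SE 0.34, edgeR adjusted p = 0.0459). Its groups overlapped, and the call was lost without EM S55, EM S61, N S62 or N S63 (edgeR adjusted p 0.0526 to 0.174).

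HOXB4, a regulator of blood stem cells and the leading HOX gene of the normal conceptus, had 7.65, 10.1 and 23.6 CPM in EM, against 5.74, 12.4 and 17.8 CPM in N, with a log2 fold change of 0.04 (edgeR adjusted p = 0.903). It lies between HOXB3 and HOXB5, both of which were higher in EM and whose annotated spans overlap their neighbours. HOXB8 (0.53, edgeR adjusted p = 0.0906) and HOXB9 (-0.82, adjusted p = 0.0681) did not pass either. Of HOXB8, DESeq2 made a call (log2 fold change 0.65, adjusted p = 0.0352).

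In HOXC the genes moved in both directions. HOXC4 had 4.29, 10.7 and 18.9 CPM in EM, against 0.987, 1.45 and 4.06 CPM in N, without overlap (2.46, SE 0.37, edgeR adjusted p = 4.01e-05). HOXC9 had 0.130, 0.611 and 1.75 CPM in EM, against 1.45, 2.17 and 5.21 CPM in N (-1.72, SE 0.53), with overlapping groups. HOXC13 had 0, 0.0995 and 4.74 CPM in EM, against 1.27, 6.38 and 16.7 CPM in N (-3.04, SE 1.08). The highest EM value was that of S55, the EM library with the highest trophectoderm marker sum. Without S55 the HOXC13 log2 fold change was -6.26. Without EM S51 or EM S53 it was -2.59 or -2.56, and the call was lost. HOXC6 was not called (-1.45, edgeR adjusted p = 0.120).

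HOXD4 had 0, 0.413 and 0.866 CPM in EM, against 0.977, 1.41 and 3.64 CPM in N (-2.11, SE 0.65), and every EM library was below every N library. Of the other HOXD genes, HOXD3 (0.69), HOXD8 (-0.63) and HOXD9 (-1.09) were not called. Several of these values turned on EM S61, the library with the high luteal sum, which had 55 counts of HOXC6, 36 of HOXC9 and 82 of HOXD8. Without it, 18 of 23 HOX genes were called, 11 higher and 7 lower in EM (the share over all genes in this fit is not given here). HOXC6 (-3.38), HOXD8 (-1.27) and HOXD9 (-1.38) were then called, HOXC9 was at -2.15, and HOXB7 was no longer called (0.80, edgeR adjusted p = 0.065). In the full set HOXC6, HOXD8 and HOXD9 reached the limit on low counts only through N, so these calls are given without a p. The part of luteal tissue in S61 was not tested. Summed over a cluster, HOXA had a lowest, median and highest of 24.2, 44.9 and 66.4 CPM in EM, against 3.37, 5.49 and 12.1 CPM in N, and HOXB 73.8, 116.6 and 187 CPM in EM, against 30.3, 46.3 and 65.4 CPM in N. HOXC (5.11, 12.8 and 20.7 CPM in EM, against 6.55, 12.5 and 23.8 CPM in N) and HOXD (2.91, 7.84 and 13.8 CPM in EM, against 4.68, 8.18 and 11.5 CPM in N) overlapped widely. The sums are therefore apart for HOXA and HOXB only.

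Among the 17 genes with too few counts for the test were the uterine HOXA genes. HOXA10 was at 8.71, 3.05, 1.31, 0.666, 5.72 and 0.146 CPM in EM S49, S51, S53, S55, S58 and S61, against 0 in 8 N conceptuses and 0.0468 CPM in N S50, which is 1 count. HOXA11 was at 8.49, 2.62, 1.65, 0.166, 6.83 and 0.0974 CPM in the same EM libraries, against 0 in 8 N conceptuses and 0.0936 CPM in N S50, which is 2 counts. Both genes were highest in EM S49 and S58 and lowest in S61. For HOXA10 every EM library was above every N library. For HOXA11, EM S55 and EM S61 held 2 counts each, as did N S50, and lay above it only through scaling to library size. Among all genes with enough counts, the groups did not overlap for 31.3%. HOXA13, which marks the lower tract and limb tips, had 53 counts spread over the 6 EM libraries (0.0832 to 1.28 CPM) and none in the 9 N libraries. With a floor of 3 counts over the N group it was at least 26.7-fold higher in EM.

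Markers of other cell types moved with these genes. The summed level of 8 leukocyte markers was 130 to 1053 CPM in EM, against 4.87 to 18.3 CPM in N, and 8 of 8 were called higher in EM. The endometrial epithelium sum was 3843 to 7803 CPM in EM, against 159 to 1466 CPM in N (6 of 6 tested higher), and the stroma and fibroblast sum 69.3 to 1241 CPM in EM, against 13.7 to 58.1 CPM in N (6 of 8 higher). The trophectoderm sum was 448 to 31565 CPM in EM, against 56253 to 90617 CPM in N (9 of 10 lower, 1 higher), and the mesoderm and hypoblast sum 22 to 1095 CPM in EM, against 1238 to 3973 CPM in N. N S50, the highest N library for HOXA5, HOXA6, HOXA7, HOXB2, HOXB3, HOXB5 and HOXB6, also had the highest epithelium sum among N libraries (1466 CPM). The part of these other cell types in the HOX differences was not tested. With each tissue scaled apart, the EM conceptuses had a lower median than the N endometria for 10 of the 11 HOX genes higher in EM, for example 49 CPM, against 240 CPM for HOXB6, and a higher one for HOXC4 (10.7 CPM, against 5.63 CPM). For all 11 genes the lowest EM conceptus lay above the highest PBMC library of E2.

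The smaller E1 set tested 12 of its 35 HOX genes and called 6, 5 higher and 1 lower in EM (47.1% of 11211 genes called, 25.4% higher and 21.7% lower). DESeq2 called 5. Of the 6, HOXA3, HOXB2, HOXB3, HOXC4 and HOXD4 were called in the same direction in E2, which is 5 of 6 of the E1 calls and 5 of the 7 E2 calls that were tested in E1. Calls covered 67.1% of all genes in E2 and 47.1% in E1, and the share of all genes called in both is not given here. In E1, HOXA10, HOXA3 and HOXD4 reached the limit on low counts only through the group in which they were higher. This favours a call, so they are given without a p. The groups did not overlap for 2 of the 12 HOX genes tested and for 22.5% of all genes. The sixth, HOXA10, had too few counts to be tested in E2. HOXA10 in EM S2, S3, S4 and S5 was at 4.70, 13.8, 32.1 and 16.3 CPM, from 20, 70, 8 and 1 counts, against 0 to 0.651 CPM in the 8 N conceptuses (6.75, SE 0.70). Every EM library was above every N library, although the values of S4 and S5 rest on few reads.

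HOXA3 was at 3.76, 11.6, 16.1 and 16.3 CPM in the 4 EM conceptuses and 0.361 to 1.82 CPM in N (3.52, SE 0.46), again without overlap. HOXB2 was at 4.0, 23.7, 0 and 16.3 CPM in EM, against 0.50 to 1.44 CPM in N (3.63, SE 0.49), with S4 below the N range. HOXB3 was at 12, 34.5, 20.1 and 0 CPM in EM, against 4.60 to 10.4 CPM in N (1.79, SE 0.34), and the call was lost without EM S3 (edgeR adjusted p = 0.0828). HOXC4 was at 5.17, 8.29, 12 and 16.3 CPM in EM, against 1.45 to 5.48 CPM in N (1.22, SE 0.46, edgeR adjusted p = 0.0389). It lost the call in 8 of 12 fits without 1 library (adjusted p 0.0534 to 0.248). HOXD4 was at 1.65, 0.395, 4.01 and 0 CPM in EM, against 2.47 to 4.12 CPM in N (-1.57, SE 0.49), and its call was lost without S3.

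HOXB7 (0.38) and HOXC9 (-0.16), called in E2, were not called in E1. HOXC13, lower in EM in E2, was not tested in E1. It was at 0.940, 0.592, 8.03 and 0 CPM in EM, against 0 to 2.16 CPM in N, so the groups overlapped, and S4 held 2 counts. HOXA11 was not tested in E1 and was at 2.59, 3.55, 4.01 and 0 CPM in EM, against 0 in 7 N conceptuses and 0.130 CPM in N S1. Without the shallow libraries EM S4 and S5, 10 genes were called, 8 higher (HOXA3, HOXA5, HOXA9, HOXA10, HOXA11, HOXB2, HOXB3 and HOXB5) and 2 lower (HOXD3 and HOXD4), and the share over all genes in this fit is not given here. Of these, HOXA5, HOXA9, HOXA10, HOXA11 and HOXB5 had no N library at the limit on low counts of the full set. The marker sums in E1 were 177 to 434 CPM in EM, against 9.71 to 15.8 CPM in N for leukocytes, 1386 to 4418 CPM in EM, against 197 to 359 CPM in N for endometrial epithelium, and 468 to 1223 CPM in EM, against 10.9 to 47.4 CPM in N for stroma. The trophectoderm sum was 3388 to 12090 CPM in EM, against 14636 to 23863 CPM in N. Their part in the result was not tested.

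HOX proteins bind DNA with the TALE cofactors of the PBX, MEIS and PKNOX families. Of 9 cofactor genes, 7 were tested in E2 conceptuses, and 3 were higher and 1 lower in EM, 4 of 7 beside 67.1% of all genes called. MEIS1 averaged 47.8 ± 38.2 CPM in EM, against 2.31 ± 2.79 CPM in N (SD, n = 6 and 9; log2 fold change 4.36, edgeR adjusted p = 1.9e-05), and PBX3 (0.82) was higher, while PKNOX1 (-0.59) was lower. The median over the 7 was 0.64, beside 0.07 over all genes. In E1, 3 of 6 cofactors tested were higher in EM, namely MEIS1 (3.87), PBX2 (0.78) and PBX3 (1.37), and none lower, beside 47.1% of all genes called. Of the 6 ParaHox genes, relatives outside the clusters, only CDX2 was tested, a factor that trophectoderm also expresses. CDX2 averaged 2.68 ± 4.56 CPM in EM, against 26.1 ± 7.20 CPM in N in E2 (-3.31), and was lower in EM in E1 too (-1.44). In E2 it reached the limit on low counts only through N. This favours a call, so it is given without a p.

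Of 15 chromatin regulators of the clusters, 4 were higher and 2 lower in EM in E2, with a median of 0.28, which is a smaller share than the 67.1% of all genes. EZH2, the main H3K27 methyltransferase of Polycomb complexes, was lower (-2.26), and its relative EZH1 (1.91) and the Polycomb reader CBX7 (3.02) were higher. In E1, 6 of 13 were higher and 2 lower (47.1% of all genes called), with EZH1 (2.32) and KMT2A (2.76), a Trithorax methyltransferase that maintains HOX expression, higher and EZH2 (-0.90) lower. Of 8 genes named as HOXA10 targets or partners in the uterus, 5 were higher and 3 lower in EM in E2, where 35.3% of all genes were higher and 31.8% lower, with ITGB3 (4.11) and the progesterone receptor PGR (3.82) higher and BMP2 (-3.04) lower. In E1, 2 of 5 were higher (EMX2, 7.06, and PGR, 2.27) and 3 lower, BMP2 (-1.33) among them, where 25.4% of all genes were higher and 21.7% lower.

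In the endometrium the comparisons ask whether the receptive lining differed with the state of the pregnancy. In E2 no HOX gene was called by edgeR in any of the 3 comparisons, out of 31 tested. Beside this, 0% of all genes were called for EM against N, 1.41% for N against NP and 0.247% for EM against NP. At an unadjusted p under 0.05 there were 2, 2 and 4 HOX genes, beside 1516, 1786 and 1778 of all 19038 genes. DESeq2 called 0, 0 and 0 HOX genes. The 3 comparisons share libraries.

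HOXA10 had a lowest, median and highest of 75.7, 104.6 and 250 CPM in EM, 69.8, 164 and 291 CPM in N, with 90.2, 106.1 and 179 CPM in NP. The groups overlapped widely. The log2 fold change was -0.37 (SE 0.30) for EM against N, 0.41 (SE 0.29) for N against NP and 0.04 (SE 0.32) for EM against NP. HOXA11 had 93.3, 128.4 and 253 CPM in EM, 84.7, 184 and 384 CPM in N, with 86.5, 131 and 187 CPM in NP. Its log2 fold change was -0.47 (SE 0.30) for EM against N and 0.12 (SE 0.31) for EM against NP, and for N against NP it was 0.59 (SE 0.28, edgeR adjusted p = 0.531). HOXB6 had 44.6, 290 and 604 CPM in EM, 78, 240 and 638 CPM in N, with 241, 294 and 559 CPM in NP. Between groups of E2 endometria, the one HOX gene of 31 without overlap was HOXA4, lower in every EM than in every NP library (-0.71, edgeR adjusted p = 0.323), beside 0.0788% of all genes without overlap for EM against NP. Without N S78, N S81 and NP S69, the libraries with the most smooth muscle signal, edgeR called no HOX gene either (3, 0 and 1 at an unadjusted p under 0.05). It called none without the unnumbered N library (4, 3 and 4). The shares over all genes in these fits are not given here.

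In E1, EM against N gave 1 call among 26 HOX genes, where 1.38% of 14084 genes were called, 0.263% higher and 1.12% lower. HOXA2, a selector gene of the branchial arches, was at 1.88, 1.37, 4.17 and 3.1 CPM in the 4 EM endometria, 0.518, 0.988 and 1.56 CPM (lowest, median, highest) in N, and 0.923, 1.18 and 2.31 CPM in NP. EM S15 lay inside the N range and the other 3 EM libraries above it. The log2 fold change against N was 1.40 (SE 0.33, edgeR adjusted p = 0.0397), and the call was lost in 9 of 19 fits without 1 library (adjusted p 0.0502 to 0.256). In E2 the HOXA2 log2 fold change was 0.08. At an unadjusted p under 0.05 there were 10 of 26 HOX genes in E1, 7 higher and 3 lower in EM, beside 1898 of all 14084 genes. DESeq2 called 2 HOX genes in E1, HOXA2 and HOXB5.

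HOXA10 was at 91.8, 182, 123.1 and 197 CPM in the 4 EM endometria of E1, 206, 301 and 453 CPM (lowest, median, highest) in N, and 45.4, 341 and 413 CPM in NP. Every EM library lay below every N library, with a log2 fold change of -1.07 (SE 0.40, edgeR adjusted p = 0.232), so the difference did not pass over all genes. HOXA11 was at 29.7, 60.4, 62.4 and 89.9 CPM in EM, 71.3, 106.1 and 190 CPM in N, with 13.2, 125.5 and 146 CPM in NP (-0.97 for EM against N, SE 0.45), with overlapping groups. For N against NP the log2 fold changes were 0.04 (HOXA10, SE 0.32) and 0.12 (HOXA11, SE 0.36), and for EM against NP -1.03 (SE 0.41) and -0.84 (SE 0.45). HOXB7 lay at 11.6 to 19.9 CPM in EM, against 3.13 to 10.9 CPM in N, without overlap and in the other direction (0.89, edgeR adjusted p = 0.208). These were 2 of 26 HOX genes without overlap between EM and N, beside 2.11% of all genes. The leukocyte marker sum was 108.9 to 155 CPM in the EM endometria, against 89.5 to 476 CPM in N, and 1 library of each group stood apart by its smooth muscle sum, EM S17 at 15262 CPM, N S23 at 23733 CPM and NP S30 at 17296 CPM. Without these 3 libraries edgeR called no HOX gene in any comparison. At an unadjusted p under 0.05 there were 6 for EM against N, 1 for N against NP and 7 for EM against NP. The shares over all genes in this fit are not given here. For EM against N, HOXA2 was then at 1.36 (edgeR adjusted p = 0.125) and HOXA10 at -1.17 (adjusted p = 0.316). The part of other cell types was not tested.

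For N against NP in E1 edgeR called no HOX gene (1 at an unadjusted p under 0.05, DESeq2 1, HOXA6, and 2.52% of all genes called). For EM against NP it called none (7 at an unadjusted p under 0.05, DESeq2 0, and 0.0426% of all genes called). Of all 14084 genes, 2295 for N against NP and 1295 for EM against NP were at an unadjusted p under 0.05. NP S31 held the lowest values of HOXA10, HOXA11 and HOXA9 in its group, with an epithelium sum of 16143 CPM. Without it, EM against N called 3 genes: HOXA2 (1.41, edgeR adjusted p = 0.0221), HOXA10 (-1.07, adjusted p = 0.0326) and HOXD10 (-0.80, adjusted p = 0.0341). EM against NP then called HOXA9 (-1.38, edgeR adjusted p = 0.0266), HOXA10 (-1.22, adjusted p = 0.0391) and HOXD10 (-1.12, adjusted p = 0.0239), and N against NP called HOXD3 (-0.79, adjusted p = 0.0286). For EM against N the HOXA10 log2 fold change was -1.07 with and without NP S31. The shares over all genes in the fit without NP S31 are not given here. In E2, HOXA10 and HOXD10 were not called for these comparisons.

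Across endometrial libraries, irrespective of group, HOXA10 varied with its neighbour HOXA11, and HOXB7 with HOXB9, which lies beyond HOXB8. Over the 22 E2 libraries HOXA10 and HOXA11 had a Pearson's r of 0.951 (Spearman's rho 0.958), and over the 19 E1 libraries 0.969 (rho 0.930). HOXB7 and HOXB9 had 0.889 (rho 0.813) in E2 and 0.875 (rho 0.828) in E1. HOXA10 and HOXB7 ran in opposite directions, with r of -0.682 (rho -0.656) in E2 and -0.711 (rho -0.781) in E1. These relations were 6 in each experiment and were picked after values had been seen, so they are given as descriptions. The points share tissue composition and scaling.

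**Figure D3:**
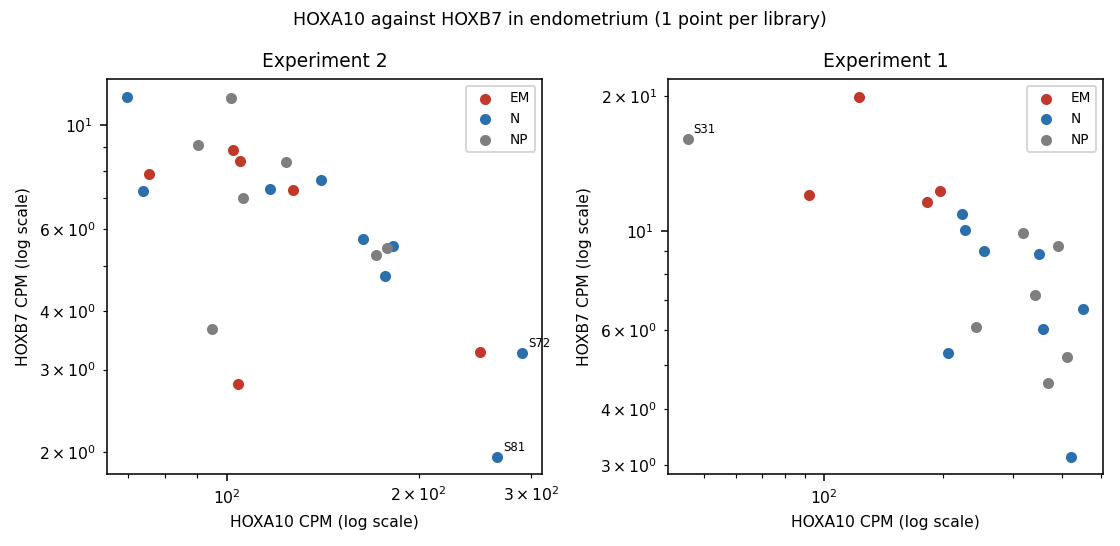
HOXA10 (x axis) against HOXB7 (y axis) in each endometrium library, both in CPM on logarithmic axes, with E2 and E1 in separate panels and EM, N and NP in separate colours. Libraries with more HOXA10 tend to have less HOXB7 in both panels (r -0.682 over 22 E2 libraries and -0.711 over 19 E1 libraries).

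Within groups the HOXA10 and HOXB7 relation was -0.544 in EM, -0.877 in N and -0.318 in NP of E2, and -0.506 in N and -0.757 in NP of E1 (the EM group of E1, with 4 libraries, was left out). Without the 2 libraries farthest from the HOXA10 median it was -0.529 in E2 (N S72 and N S81 left out) and -0.709 in E1 (NP S31 and EM S14 left out). HOXB7 and the epithelium marker sum had r of 0.107 (rho 0.00621) in E2 and 0.605 (rho 0.632) in E1, or -0.00838 without EM S83 and EM S80 and 0.577 without NP S31 and NP S28. HOXA10 and the stroma sum had r of 0.330 (rho 0.292) in E2 and 0.593 (rho 0.298) in E1, or 0.388 without NP S69 and the unnumbered N library and 0.256 without NP S31 and N S19, so the E1 value rests on those libraries. The part of cell composition was not tested.

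In the corpus luteum no HOX gene was called by edgeR in any comparison, out of 27 tested. At an unadjusted p under 0.05 there were 3 for EM against N, 1 for N against NP and 8 for EM against NP. Of all 17597 genes there were 1201, 390 and 784, in that order. DESeq2 called 0 HOX genes in each. Over all genes 0.00568%, 0% and 0% were called, so the tissue as a whole gave almost no calls. HOXC6 had a lowest, median and highest of 7.69, 36.7 and 47.5 CPM in EM, 35.7, 41.5 and 67 CPM in N, with 36.3, 42.5 and 52.7 CPM in NP. HOXD3 had 16.5, 40.03 and 65.4 CPM in EM, 25.2, 47.4 and 70.1 CPM in N, with 34.2, 42 and 66.5 CPM in NP. HOXD8 had 20.3, 36 and 44 CPM in EM, 28.3, 34.7 and 40.7 CPM in N, with 31.8, 36.9 and 40.3 CPM in NP. For these genes the group medians lay close together and the groups overlapped.

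**Figure D4:**
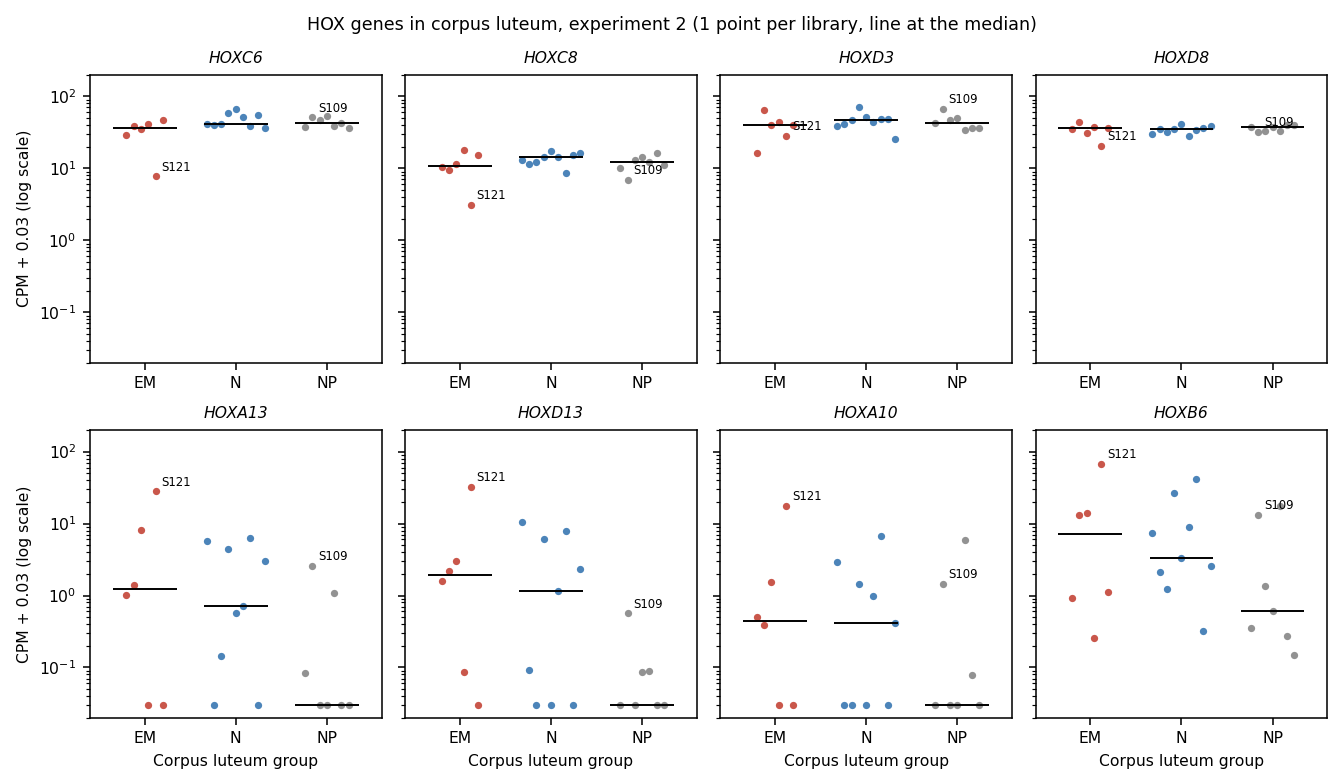
CPM of HOXC6, HOXC8, HOXD3, HOXD8, HOXA13, HOXD13, HOXA10 and HOXB6 in each corpus luteum library of E2, on a logarithmic axis with a small offset so that libraries at 0 are drawn, with EM, N and NP from left to right and each point 1 library. The first 4 genes have no library at 0, and the last 4 range from near 0 to 6.24 CPM or more within EM and within N, with EM S121 highest in EM.

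The high-numbered genes and HOXB6 varied widely among corpora lutea of the same group. HOXA10 had 0, 0.417 and 17.4 CPM in EM, 0, 0.379 and 6.66 CPM in N, with 0, 0 and 5.82 CPM in NP, and HOXA11 0, 0.493 and 8.04 CPM in EM, 0, 0.478 and 8.34 CPM in N, with 0, 0 and 8.0 CPM in NP. HOXA13 had 0, 1.19 and 27.9 CPM in EM, 0, 0.690 and 6.24 CPM in N, with 0, 0 and 2.52 CPM in NP. HOXD13, a gene of limb tips and genital tubercle, had 0, 1.87 and 32.4 CPM in EM, 0, 1.11 and 10.5 CPM in N, with 0, 0 and 0.534 CPM in NP. All 4 had a library at 0 in every group. HOXB6 had 0.228, 7.12 and 67.1 CPM in EM, 0.293, 3.31 and 41.6 CPM in N, with 0.120, 0.577 and 17.6 CPM in NP. Of EM libraries S121 was the highest for HOXA10, HOXA11, HOXA13, HOXD13 and HOXB6, and its endometrial epithelium and smooth muscle sums were 2698 and 16357 CPM. N S124 was the highest N library for HOXA10, HOXA11, HOXA13 and HOXB6, with an epithelium sum of 295 CPM. HOXD13 gave the smallest p for EM against NP (log2 fold change 5.96, SE 1.68, edgeR adjusted p = 1.00).

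The summed HOXA level of the corpus luteum was 0.399, 9.23 and 123.6 CPM in EM, 0.342, 5.89 and 46.2 CPM in N, with 0.380, 1.02 and 25.1 CPM in NP, whereas HOXD was 88.8, 128.4 and 198 CPM in EM, 111.99, 142 and 202 CPM in N, with 119.01, 131 and 196 CPM in NP. HOXA thus ranged over more than 2 orders of magnitude within EM and within N, and HOXD did not. EM S121, with the low luteal and high stratified epithelium sums, had the lowest HOXC6 and HOXC8. Without EM S121 and NP S109, 26 HOX genes were tested and edgeR again called none (1, 3 and 4 at an unadjusted p under 0.05). The shares over all genes in this fit are not given here. The part of other cell types was not tested.

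Whether the pregnancy contrasts of HOX genes differed between endometrium and corpus luteum was tested in 1 fit of both tissues of E2. Of 34 HOX genes none was called by edgeR for N against NP (4 at an unadjusted p under 0.05, DESeq2 0; 0.521% of all genes called) or for EM against N (3 at an unadjusted p under 0.05, DESeq2 0; 0% of all genes called). Without EM S121 and NP S109 edgeR called none either (9 and 2 at an unadjusted p under 0.05). For the fits of both tissues, the shares of all genes at an unadjusted p under 0.05 are not given here.

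PBMC allowed tests of 3 HOX genes in each experiment, and edgeR called none. In E2 these were HOXB3, HOXB4 and HOXD3, with 1, 0 and 0 at an unadjusted p under 0.05 for EM against N, N against NP and EM against NP, and in E1 HOXB3, HOXB4 and HOXC4, with 0 in each. Of all 16269 genes in E2, 342, 740 and 278 were at an unadjusted p under 0.05, in the same order of comparisons. Of all 11501 genes in E1 there were 758, 603 and 374. DESeq2 called 0 HOX genes, and 0% of all genes were called in each PBMC comparison. HOXB3 had a lowest, median and highest of 0.541, 1.44 and 1.72 CPM in EM, 1.26, 2.04 and 2.66 CPM in N, with 1.16, 1.94 and 2.61 CPM in NP (-0.52 for EM against N, SE 0.23, edgeR adjusted p = 0.999). HOXB4 had 0.902, 1.43 and 2.40 CPM in EM, 1.35, 1.67 and 2.72 CPM in N, with 0.966, 1.82 and 2.65 CPM in NP. HOXD3 had 0.247, 0.677 and 0.989 CPM in EM, 0.271, 0.696 and 1.83 CPM in N, with 0.169, 0.841 and 1.29 CPM in NP. All 3 genes overlapped between groups. HOX genes without a count in any library of a group numbered 18 in EM, 17 in N and 12 in NP of E2, and HOXA11 was among them in all 3 groups.

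In the maternal tissues the cofactor, ParaHox, chromatin and HOXA10 target lists gave few calls. In the E1 endometrium PBX3 was higher in EM than in N (0.85, edgeR adjusted p = 0.0226) and MLLT3, a partner of DOT1L in transcription elongation, was lower in N than in NP (-0.41, adjusted p = 0.0441). No other member of these 4 lists was called by edgeR in endometrium, corpus luteum or PBMC.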

How the data were processed

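The authors deposited raw counts of reads per gene for each tissue and experiment. E2 reads were 75 bp, single-end, and aligned to ARS-UCD1.2, and E1 reads were 100 bp, paired-end, and aligned to UMD3.1. Libraries were made with a stranded mRNA kit, and the use of strand in counting was not given in the sources used here. The deposited E1 count tables also give exon lengths (676 to 3137 bp for HOX genes), from which RPKM were computed here. The submitters' processing notes name edgeR and DESeq2, and the deposited counts are whole numbers without scaling. In E2, 28 repeated rows were dropped from 35186. 2 samples had no group and their 2 columns were not used.

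Counts were fitted per tissue and experiment with edgeR 4.0.16 (R 4.3.3, limma 3.58.1; filterByExpr with a minimum count of 10, TMM, quasi-likelihood test), with Benjamini-Hochberg adjustment over all genes tested and a threshold of 0.05. SE was taken from the log2 fold change and F. EM minus N, N minus NP and EM minus NP share libraries. DESeq2 1.42.0, RLE factors, a filter of 10 summed counts and leaving out each library were alternatives. Filtering left out 17, 8, 12 and 36 of the 39 HOX genes in conceptus, endometrium, corpus luteum and PBMC of E2, and 23, 9 and 32 of 35 in conceptus, endometrium and PBMC of E1. Passing only through a group where a gene was high favours a call for it. Each script was tested on simulated counts with known changes. Correlations used log2(CPM + 0.5). Plots were drawn with matplotlib 3.10.9 (Python 3.11.15).

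Named were HOX genes called in any of the 17 within-tissue contrasts, the 6 highest of each tissue in N libraries of E2, HOXA10 and HOXA11, and up to 3 genes of each other list by smallest p, and others were chosen after their values were seen. Some named genes are not reported here. The HOX genes and lists were chosen with earlier results of these data known. Nothing in the labels says that libraries are independent beyond their sample number, so p-values measure the spread between samples. No 2 libraries agreed within sampling noise (the closest pair had a chi-square of 4.27 per degree of freedom).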

Additional observations from a re-analysis of the deposited data

Results flagged for a closer look

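Of 224 groups of 4 to 10 libraries examined over 27 HOX genes, 22 held a library far from the others of its group, where chance gives about 1 in 20. Values are CPM, with the range of the other libraries of the group in parentheses.

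In the conceptus of E2, N S60 stood apart for HOXA4 at 6.061 (1.396 to 2.714), and N S56 for HOXB8 at 19.7 (9.846 to 13.44). In the endometrium of E2, N S72 was high for HOXA4 at 32.39 (9.378 to 16.32), HOXA5 at 70.36 (17.67 to 31.37), HOXA9 at 250.2 (33.41 to 88.32) and HOXD3 at 173.9 (39.88 to 84). NP S69, with a smooth muscle sum of 10716, was high for HOXA5 at 88.96 (22.39 to 31.37), HOXA7 at 12.83 (4.974 to 7.166) and HOXC6 at 34.36 (2.977 to 8.549). EM S75 was high for HOXD4 at 88.62 (44.83 to 52.55).

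In the endometrium of E1, NP S31 was low for HOXA9 at 39.56 (173.2 to 368.7), HOXA10 at 45.41 (241.8 to 412.6), HOXA11 at 13.19 (80.68 to 146.0), HOXD3 at 8.837 (40.83 to 69.96), HOXD4 at 14.14 (64.47 to 101.6) and HOXD9 at 5.71 (23.81 to 40.32), and high for HOXA2 at 2.311 (0.923 to 1.281). EM S16 was high for HOXB7 at 19.94 (11.62 to 12.26). In the corpus luteum, EM S121 was low for HOXC6 at 7.686 (29.44 to 47.46) and HOXC8 at 3.032 (9.582 to 17.9), and EM S112 was high for HOXD9 at 36.05 (13.62 to 19.15). In PBMC of E2, EM S95 was low for HOXB3 at 0.541 (1.28 to 1.724).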

How the results depend on the processing

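The conceptus E2 count of 15 was 16 with RLE factors, 22 with the looser filter and 16 with DESeq2, and 14 to 18 without 1 library. For the counts in this paragraph, the shares over all genes in the alternative fits are not given here. The looser filter added HOXA10, HOXA11 and HOXA13, which reached it through EM counts alone. In E1 the conceptus count of 6 became 12 with the looser filter, 10 without EM S4 and S5, and 3 to 7 without 1 library. In the E1 endometrium DESeq2 called 2 for EM against N and 1 for N against NP, without EM S17, N S23 and NP S30 together (chosen after seeing the data) edgeR called 0 for EM against N, and without 1 library edgeR called 0 to 3 for EM against N, 0 to 1 for N against NP and 0 to 3 for EM against NP. The other within-tissue counts stayed at 0 without any 1 library. The number of PBMC genes was 0 at a limit of 2 CPM. HOXC4 in E1 conceptuses lost its call with the looser filter (1.05, edgeR adjusted p = 0.0686) and without EM S4 and S5 (0.98, adjusted p = 0.107). HOXD4 lost its call there with DESeq2 (-1.33). No result of the alternatives run changed sign. The cause of these changes was not tested. Depth limits the E1 EM conceptuses, where 1 count in S5 gives 16.3 CPM. No paired analysis was possible because the groups compared share no replicate numbers.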
